A study of Mus musculus with 12 samples.

Results

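Expression of 52 chromatin genes was read on arrays of mouse embryonic stem (ES) cells and of the XEN-like cells, cells resembling extraembryonic endoderm stem cells, that were made from them. The genes encode subunits of the Polycomb repressive complexes PRC1 and PRC2, of the BAF and NuRD remodelling complexes, and some histone methyltransferases and demethylases. They are 52 of the 34836 gene names on the array, found by name, and 51 of them were among the 18946 genes that passed the filter on dim signals, by the brightest of their probes. Only Actl6b, a BAF actin-related subunit known from neurons, was not well above background on any array, with signals of 1.42 to 3.29. Signals are given throughout as percent of the 75th percentile of the array. The list was chosen with measured values of these arrays known, namely the differences between ES and XEN-like cells and, for Phf6, the difference between the ES lines. Those differences are therefore described here without a test. With limma, 2 comparisons were tested over all probes. The first, between the genotypes in XEN-like cells, was not itself used in the choice but shares its XEN-like arrays with differences that were. For Phf6 it follows by arithmetic from the differences that were known, so its p-value is not independent of the choice. The second was the difference between the genotypes in the response to dexamethasone (Dex), for all members but Phf6. It is computed from the differences between ES and XEN-like cells that the choice used, so its p-values are not independent of the choice.

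Both lines carry Gata6-GR, a fusion of Gata6 with the ligand-binding domain of the glucocorticoid receptor that is driven by a CAG promoter and moves to the nucleus with Dex. In Sox7 (+/-) cells 1 allele of the transcription factor gene Sox7 is replaced by a puromycin cassette, and in Sox7 (-/-) cells both are. Both were grown in medium with LIF, a cytokine that keeps ES cells undifferentiated. Each genotype was collected at day 4 without Dex, as ES cells, and with Dex, as XEN-like cells, with 3 arrays for each of the 4 groups. The null line was selected from the heterozygous line with high-dose puromycin, so each genotype is 1 line, and a difference between genotypes cannot be told apart from one between these lines. No source says that the arrays of a group came from separate cultures, and the source labels of all Sox7 (+/-) ES arrays carry the number 1, so p-values measure the spread between these samples, which may be technical.

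Polycomb proteins keep developmental genes silent. PRC2 methylates lysine 27 of histone H3 through Ezh2 or Ezh1, which work with Eed and Suz12, and accessory subunits such as Jarid2, Mtf2 and Phf19 bring it to CpG-rich promoters. PRC1 ubiquitinates histone H2A through Rnf2 or Ring1, and the Pcgf subunit at its centre defines which partners join: Cbx and Phc proteins in canonical PRC1, Rybp and Kdm2b in variant PRC1. BAF complexes move nucleosomes with the ATPase Smarca4 or Smarca2, and ES cells are known for a form built on Smarca4, Smarcc1, Smarcd1 and Arid1a. NuRD joins the remodeller Chd4 to the deacetylases Hdac1 and Hdac2.

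The 75th percentile of the arrays lay at 252.3 to 415.9 intensity units and 41.7 to 52.3% of spots were well above background. Sox7 read 218 to 688 on the Sox7 (+/-) arrays and 1.48 to 2.57 on the Sox7 (-/-) arrays, where no array was well above background. Of 10 ES cell markers, 6 were lower with Dex in Sox7 (+/-) cells and 8 in Sox7 (-/-) cells at an adjusted p under 0.05 and over 2-fold, and Klf4 was higher in Sox7 (+/-) cells (1.46, limma, adjusted p = 4.5e-08). No XEN-like array had Nanog or Fgf4 well above background. Of 10 primitive endoderm markers, 8 and 9 were higher. All Sox7 (+/-) arrays and replicates 2 and 3 of the Sox7 (-/-) XEN-like cells lay on 1 slide, and the other 4 arrays on another. In ES cells slide and genotype thus cannot be told apart. In the Sox7 (-/-) line slide and Dex partly coincide, which also bears on the difference between the Dex responses. A block for the slide rests on 1 array, replicate 1 of the Sox7 (-/-) XEN-like cells, in the only group on both slides.

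With Dex, 7 of the 51 members were over 2-fold higher in Sox7 (+/-) cells and 8 were over 2-fold lower, and in Sox7 (-/-) cells 7 were higher and 9 lower. Of all genes, 11.4% were over 2-fold higher and 14.3% lower in Sox7 (+/-) cells, and 14.8% higher and 14.3% lower in Sox7 (-/-) cells. Nothing is read from these shares, since the list was chosen from these differences. In Sox7 (+/-) cells the split depended on the scaling, with 4 higher and 14 lower when arrays were scaled to spike-in probes, which moved the median of all genes by -0.49 on the log2 scale. The same 7 genes were over 2-fold higher in both lines: the BAF subunits Smarcd3, Smarca2 and Smarcc2, the PRC1 subunits Cbx8, Pcgf5 and Bmi1, and the remodeller Chd7. Over 2-fold lower in both lines were Phc1 of PRC1, Jarid2, Mtf2, Phf19 and Eed of PRC2, the BAF subunit Actl6a and the demethylase Kdm5b. Mta3 passed 2-fold only in Sox7 (+/-) cells (-1.01), and Smarcd1 (-1.07) and Phf6 (-1.25) only in Sox7 (-/-) cells, on the log2 scale, and 34 members stayed within 2-fold in both lines. With another background correction (normexp), some of these genes had smaller differences with Dex in Sox7 (+/-) and Sox7 (-/-) cells, among them Phf19 at -0.70 and -0.63, Smarcc2 at 0.62 and 0.53, Cbx8 at 1.21 and 1.67 and Smarca2 at 1.74 and 2.09. The median log2 difference over the members was 0.00 in Sox7 (+/-) cells and -0.07 in Sox7 (-/-) cells, beside 0.16 and 0.07 over all genes. In such bulk samples, fewer cells of a kind and less RNA per cell cannot be told apart.

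**Figure D1:**
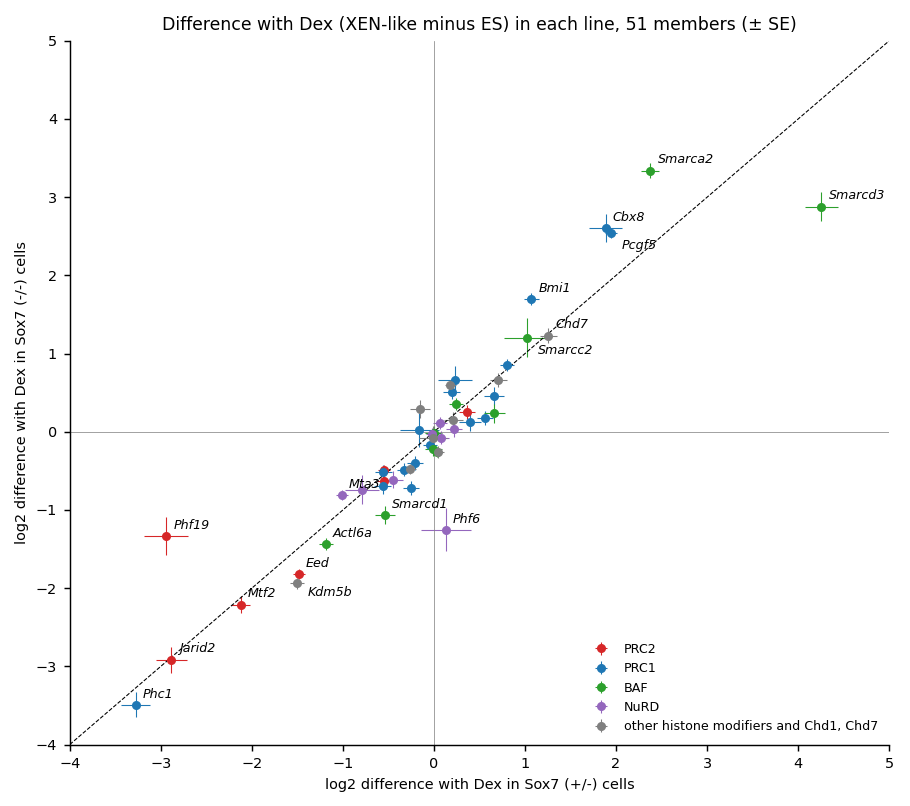
Log2 difference with Dex (XEN-like minus ES cells) of the 51 members in Sox7 (+/-) cells (x axis) and Sox7 (-/-) cells (y axis), with standard errors from the fit (3 arrays per group), coloured by complex, and named where over 2-fold in either line. Points on the dashed line differ equally in both lines. Smarcd3 and Phf19 lie off the line on opposite sides, with 4.26 and -2.94 in Sox7 (+/-) cells and 2.88 and -1.34 in Sox7 (-/-) cells.

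Promoter sequences of 4 members are printed beside their values below: Ezh2, the methyltransferase, Phf19, which differed between the genotypes, and Phc1 and Smarcd3, with the most negative and the most positive mean difference with Dex over both lines. Each window runs from 250 bases before to 50 bases after the start of transcription, 5′ to 3′ on the strand of the gene, and comes from RefSeq (GRCm38.p6), which gave windows for 43 of the 52 members. Capitals mark motifs searched on both strands: GATA (A or T, then GATAA), SOX (A or T at both of the first positions, CAA, A or T, then G) and E2F (TTTCCCGC, TTTCGCGC, TTTGCCGC or TTTGGCGC). A match on the other strand is shown as its reverse complement, and no match of a motif overlapped a match of another.

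Among the PRC2 core subunits, Eed, which reads methylated lysine 27, was over 2-fold lower in XEN-like cells, while both methyltransferases and Suz12 stayed within 2-fold. Eed read 5676, 5602 and 5418 in Sox7 (+/-) ES cells against 1918, 1975 and 2065 in Sox7 (+/-) XEN-like cells. Eed was at 9019.8, 9296 and 8597 in Sox7 (-/-) ES cells and at 2529.9, 2687 and 2399 in Sox7 (-/-) XEN-like cells. Its log2 difference with Dex was -1.49 ± 0.07 (SE) in Sox7 (+/-) cells and -1.82 ± 0.07 in Sox7 (-/-) cells, and ES and XEN-like arrays did not overlap in either line. Ezh2, the main methyltransferase of dividing cells, read 821, 824 and 808 in Sox7 (+/-) ES cells against 609.8, 529 and 537 in Sox7 (+/-) XEN-like cells. Ezh2 was at 1151, 1235 and 1131 in Sox7 (-/-) ES cells and at 738, 793 and 747 in Sox7 (-/-) XEN-like cells. All Ezh2 signals in XEN-like cells were below those in ES cells of the same line. Its paralogue Ezh1 read 1512, 1538 and 1414 in Sox7 (+/-) ES cells against 2064, 2063 and 1651 in Sox7 (+/-) XEN-like cells. Ezh1 was at 1713, 1668 and 1772 in Sox7 (-/-) ES cells and at 2102, 2041 and 2009.6 in Sox7 (-/-) XEN-like cells. The 2 enzymes went opposite ways, Ezh2 lower with log2 differences of -0.55 and -0.63 and Ezh1 higher with 0.36 and 0.26, each without overlap between ES and XEN-like arrays. A dimmer probe for Ezh1 gave -0.24 in Sox7 (+/-) cells and 0.47 in Sox7 (-/-) cells. Suz12, needed for a stable complex, differed by -0.55 and -0.49. The window of Ezh2 holds a SOX match upstream and an E2F match just after the start.
Ezh2 (chr6:47594981-47595280, minus strand): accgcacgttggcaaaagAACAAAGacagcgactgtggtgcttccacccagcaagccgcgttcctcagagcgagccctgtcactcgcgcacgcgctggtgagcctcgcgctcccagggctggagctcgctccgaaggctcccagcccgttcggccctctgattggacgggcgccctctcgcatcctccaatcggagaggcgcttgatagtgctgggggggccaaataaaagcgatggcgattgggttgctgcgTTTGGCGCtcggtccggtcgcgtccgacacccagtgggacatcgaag

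All 3 PRC2 accessory subunits were over 2-fold lower in both lines, with a median log2 difference of -2.88 in Sox7 (+/-) cells and -2.21 in Sox7 (-/-) cells. Jarid2, a demethylase-like protein without enzyme activity that recruits PRC2, read 1015, 1062 and 973 in Sox7 (+/-) ES cells against 158, 167 and 98.6 in Sox7 (+/-) XEN-like cells. Jarid2 was at 1379, 1453 and 1563 in Sox7 (-/-) ES cells and at 201, 185 and 196 in Sox7 (-/-) XEN-like cells. Its differences were -2.88 ± 0.17 (SE) in Sox7 (+/-) cells and -2.91 ± 0.17 in Sox7 (-/-) cells. Replicate 3 of the Sox7 (+/-) XEN-like cells was the lowest array. Mtf2, a Polycomb-like protein that binds DNA, read 2179.9, 2254 and 2034 in Sox7 (+/-) ES cells against 519.9, 531 and 438 in Sox7 (+/-) XEN-like cells. Mtf2 was at 3209, 3370.2 and 3405 in Sox7 (-/-) ES cells and at 799, 739 and 630.0 in Sox7 (-/-) XEN-like cells. XEN-like and ES arrays did not overlap for Mtf2, and its differences were -2.12 and -2.21. Phf19, another Polycomb-like protein, gave dim signals, of 30.4, 27.9 and 26.8 in Sox7 (+/-) ES cells against 2.38, 5.43 and 3.88 in Sox7 (+/-) XEN-like cells. Phf19 was at 29.6, 36.3 and 38.1 in Sox7 (-/-) ES cells and at 15.5, 13.2 and 12.4 in Sox7 (-/-) XEN-like cells. None of the Sox7 (+/-) XEN-like arrays was well above background for Phf19, so its signal in Sox7 (+/-) ES cells was at least 3.02-fold higher, a bound set by the dimmest probes that the arrays measured (measured log2 difference -2.94). In Sox7 (-/-) cells all arrays were well above background and the difference was -1.34 ± 0.25. The window of Phf19 holds an E2F match on the other strand.
Phf19 (chr2:34913927-34914226, minus strand): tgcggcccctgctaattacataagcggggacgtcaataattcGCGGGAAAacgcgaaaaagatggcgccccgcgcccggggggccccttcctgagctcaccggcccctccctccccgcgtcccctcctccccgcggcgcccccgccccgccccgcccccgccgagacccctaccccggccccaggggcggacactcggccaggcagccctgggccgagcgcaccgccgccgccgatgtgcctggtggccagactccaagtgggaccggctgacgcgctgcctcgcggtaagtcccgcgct

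In PRC1, the E3 ligases stayed within 2-fold: Rnf2, the main ligase of ES cells, had differences of -0.25 and -0.72, and Ring1 of 0.39 and 0.13, each pair here and below being Sox7 (+/-) then Sox7 (-/-) cells. The Pcgf subunits, of which a complex holds 1, went different ways. Bmi1 (Pcgf4), of canonical PRC1, read 154, 152 and 139 in Sox7 (+/-) ES cells against 305, 295 and 335 in Sox7 (+/-) XEN-like cells. Bmi1 was at 166, 155 and 162 in Sox7 (-/-) ES cells and at 563, 500.4 and 505 in Sox7 (-/-) XEN-like cells. Bmi1 was highest in Sox7 (-/-) XEN-like cells. Pcgf5, of a variant PRC1, read 943, 905 and 916 in Sox7 (+/-) ES cells against 3644, 3281 and 3714 in Sox7 (+/-) XEN-like cells. Pcgf5 was at 448, 435 and 449 in Sox7 (-/-) ES cells and at 2652, 2591 and 2517 in Sox7 (-/-) XEN-like cells. Both were higher in XEN-like cells without overlap. The differences were 1.07 ± 0.08 and 1.70 ± 0.08 for Bmi1 and 1.94 ± 0.06 and 2.54 ± 0.06 for Pcgf5 (SE). Pcgf6, of a variant PRC1 known to hold germ cell genes silent in ES cells, was lower (-0.56 and -0.52). Pcgf2, which makes up canonical PRC1 in ES cells, differed by 0.56 and 0.17, Pcgf3 by 0.23 and 0.66, and Pcgf1 by -0.04 and -0.17. Of the variant subunits, Rybp differed by -0.33 and -0.48, and Kdm2b, which binds unmethylated CpG sites, by -0.56 and -0.70.

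The Cbx subunits bind methylated lysine 27 and replace one another in canonical PRC1. Cbx8 read 17.9, 22.0 and 18.9 in Sox7 (+/-) ES cells against 81.6, 67.5 and 68.0 in Sox7 (+/-) XEN-like cells. Cbx8 was at 13.7, 18.1 and 17.4 in Sox7 (-/-) ES cells and at 75.2, 121 and 107.1 in Sox7 (-/-) XEN-like cells, with differences of 1.88 ± 0.18 (SE) in Sox7 (+/-) cells and 2.61 ± 0.18 in Sox7 (-/-) cells. Cbx7, known as the Cbx protein of ES cells, read 16.0, 14.1 and 13.5 in Sox7 (+/-) ES cells against 9.84, 13.6 and 16.2 in Sox7 (+/-) XEN-like cells. Cbx7 was at 14.6, 10.8 and 14.9 in Sox7 (-/-) ES cells and at 17.3, 13.2 and 10.8 in Sox7 (-/-) XEN-like cells. The Cbx7 arrays overlapped between all groups and its differences were -0.16 and 0.02, with a standard error of 0.22. Cbx2, another canonical subunit, read 138, 152 and 147 in Sox7 (+/-) ES cells against 169, 167 and 164 in Sox7 (+/-) XEN-like cells. Cbx2 was at 174, 219 and 172 in Sox7 (-/-) ES cells and at 264, 269 and 264 in Sox7 (-/-) XEN-like cells, and was 0.19 and 0.50 higher. Cbx6 read 674, 712 and 761 in Sox7 (+/-) ES cells against 662, 627 and 566 in Sox7 (+/-) XEN-like cells. Cbx6 was at 804, 851 and 844 in Sox7 (-/-) ES cells and at 570.5, 681 and 651 in Sox7 (-/-) XEN-like cells, with differences of -0.21 and -0.40. Cbx8 alone of the 4 passed 2-fold, in both lines.

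The Phc subunits, whose SAM domains link PRC1 complexes, held the most negative difference of the list. Phc1 read 649, 660.2 and 736 in Sox7 (+/-) ES cells against 84.7, 80.1 and 51.2 in Sox7 (+/-) XEN-like cells. Phc1 was at 837, 825 and 892 in Sox7 (-/-) ES cells and at 73.8, 75.2 and 77.5 in Sox7 (-/-) XEN-like cells, with differences of -3.28 ± 0.16 (SE) in Sox7 (+/-) cells and -3.49 ± 0.16 in Sox7 (-/-) cells. Replicate 3 of the Sox7 (+/-) XEN-like cells was again the lowest array. Phc2 read 1222, 1135 and 1326 in Sox7 (+/-) ES cells against 2108, 2154 and 2143 in Sox7 (+/-) XEN-like cells. Phc2 was at 1253, 1194 and 1118 in Sox7 (-/-) ES cells and at 2154, 2275 and 2006 in Sox7 (-/-) XEN-like cells. Phc2 was higher in XEN-like cells in both lines. Phc3 read 43.8, 47.1 and 49.9 in Sox7 (+/-) ES cells against 73.6, 78.2 and 70.0 in Sox7 (+/-) XEN-like cells. Phc3 was at 58.2, 44.6 and 59.1 in Sox7 (-/-) ES cells and at 69.8, 74.2 and 76.4 in Sox7 (-/-) XEN-like cells. Phc2 and Phc3 were higher in XEN-like cells without overlap, Phc2 by 0.80 and 0.85 and Phc3 by 0.66 and 0.46, opposite in sign to Phc1. A second, dimmer probe for Phc1 was not well above background on any Sox7 (+/-) XEN-like array and was so on 1 of 3 Sox7 (-/-) ones, and its signal was at least 3.48-fold higher in ES than in XEN-like cells of the Sox7 (+/-) line. Of the enzymes that remove lysine 27 methylation, Kdm6b was higher by 0.71 and 0.66 and Kdm6a differed by -0.01 and -0.08. The window of Phc1 holds a SOX match on the other strand.
Phc1 (chr6:122340178-122340477, minus strand): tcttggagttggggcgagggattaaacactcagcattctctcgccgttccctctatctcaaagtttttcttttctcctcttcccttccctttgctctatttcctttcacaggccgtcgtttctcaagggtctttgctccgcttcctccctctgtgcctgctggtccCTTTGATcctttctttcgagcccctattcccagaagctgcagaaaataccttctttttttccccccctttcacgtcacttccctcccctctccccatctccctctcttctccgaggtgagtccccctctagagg

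**Figure D2:**
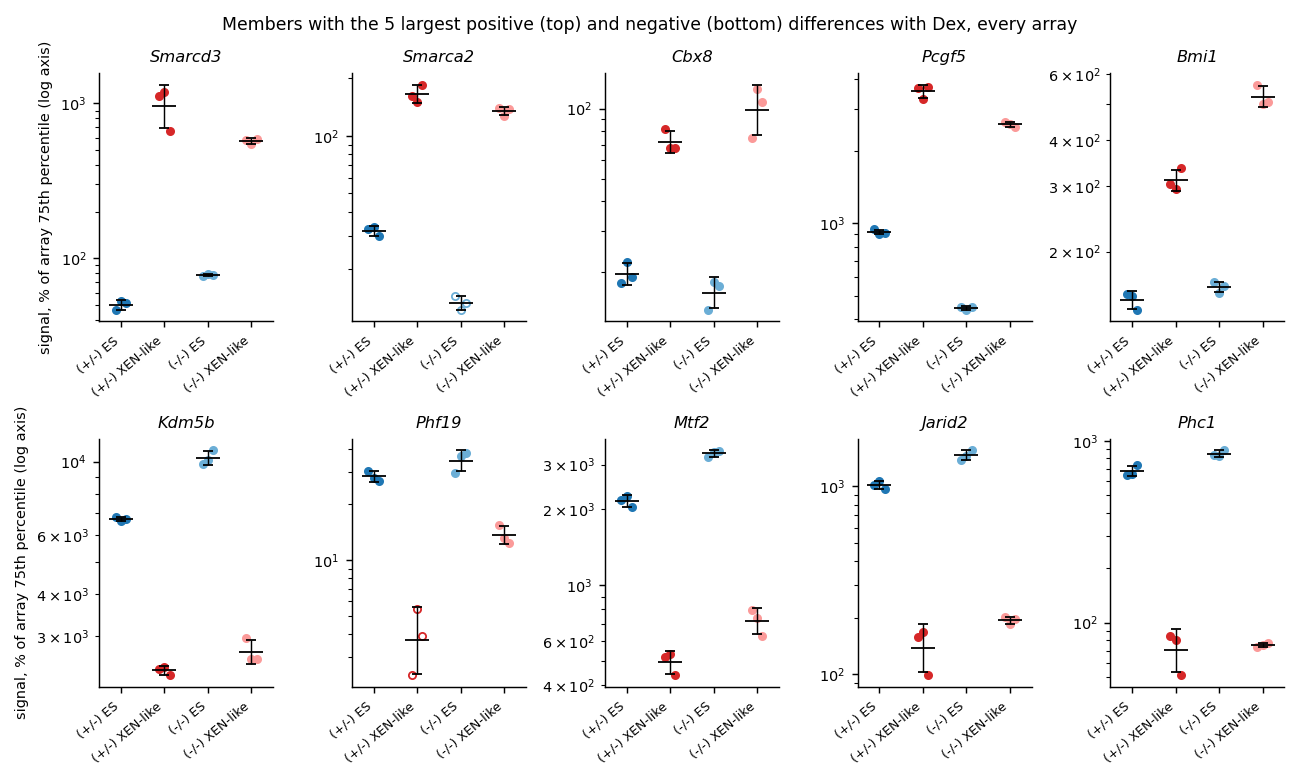
Signal of the members with the 5 largest positive (top row) and negative (bottom row) mean differences with Dex, on a log axis in percent of the 75th percentile of the array. Circles are single arrays, open where fewer than 3 arrays of the group were well above background; bars are the mean and 1 SD of the log2 signals (n = 3). Phf19 is open in Sox7 (+/-) XEN-like cells and Smarca2 in Sox7 (-/-) ES cells, and Smarcd3 runs from 46.2 to 1194 over the arrays.

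In BAF, the 2 subunits with the largest differences, Smarcd3 and Smarca2, are alternatives to subunits of the ES cell form. Smarcd3 (Baf60c), a subunit known from heart and muscle, read 46.2, 53.0 and 51.6 in Sox7 (+/-) ES cells against 1116, 1194 and 661 in Sox7 (+/-) XEN-like cells. Smarcd3 was at 76.6, 79.5 and 78.2 in Sox7 (-/-) ES cells and at 584, 548 and 592 in Sox7 (-/-) XEN-like cells. Its differences were 4.26 ± 0.18 (SE) in Sox7 (+/-) cells and 2.88 ± 0.18 in Sox7 (-/-) cells, the most positive of the list by the mean of both lines. Smarcd1 (Baf60a) read 37.7, 39.2 and 44.9 in Sox7 (+/-) ES cells against 23.3, 30.4 and 30.7 in Sox7 (+/-) XEN-like cells. Smarcd1 was at 63.5, 60.2 and 64.1 in Sox7 (-/-) ES cells and at 31.0, 29.8 and 29.0 in Sox7 (-/-) XEN-like cells, and its differences were -0.54 and -1.07, so the 2 paralogues had opposite signs in both lines. The window of Smarcd3 holds a GATA match on the other strand.
Smarcd3 (chr5:24601953-24602252, minus strand): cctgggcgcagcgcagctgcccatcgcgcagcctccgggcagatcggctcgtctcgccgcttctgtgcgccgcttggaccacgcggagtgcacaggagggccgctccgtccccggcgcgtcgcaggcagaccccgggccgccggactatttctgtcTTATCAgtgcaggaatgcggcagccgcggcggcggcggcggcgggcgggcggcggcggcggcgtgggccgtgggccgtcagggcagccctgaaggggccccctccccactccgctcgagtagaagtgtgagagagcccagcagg

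Of the ATPases, Smarca2 (Brm) read 32.6, 33.3 and 29.7 in Sox7 (+/-) ES cells against 162, 149.6 and 186 in Sox7 (+/-) XEN-like cells. Smarca2 was at 14.5, 12.2 and 13.3 in Sox7 (-/-) ES cells and at 139.5, 127 and 138 in Sox7 (-/-) XEN-like cells. Its differences were 2.38 ± 0.10 (SE) in Sox7 (+/-) cells and 3.34 ± 0.10 in Sox7 (-/-) cells, and 2 of 3 Sox7 (-/-) ES arrays were well above background. Smarca4 (Brg1) read 5974, 6164 and 6154 in Sox7 (+/-) ES cells against 5754, 5597 and 6974 in Sox7 (+/-) XEN-like cells. Smarca4 was at 5634, 5187 and 5667 in Sox7 (-/-) ES cells and at 5817, 5091 and 5373 in Sox7 (-/-) XEN-like cells. The differences of Smarca4 were 0.00 and -0.02, and its ES and XEN-like arrays overlapped in both lines.

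Of the scaffold subunits, Smarcc2 (Baf170) was dim and read 12.4, 13.6 and 14.3 in Sox7 (+/-) ES cells against 36.0, 30.5 and 18.4 in Sox7 (+/-) XEN-like cells. Smarcc2 was at 14.8, 9.02 and 15.5 in Sox7 (-/-) ES cells and at 30.0, 28.7 and 29.1 in Sox7 (-/-) XEN-like cells, with differences of 1.02 ± 0.25 (SE) in Sox7 (+/-) cells and 1.20 ± 0.25 in Sox7 (-/-) cells. Smarcc1 (Baf155) read 1179, 1199 and 1158 in Sox7 (+/-) ES cells against 1377, 1495 and 1305 in Sox7 (+/-) XEN-like cells. Smarcc1 was at 883, 952 and 873 in Sox7 (-/-) ES cells and at 1147, 1242 and 1084 in Sox7 (-/-) XEN-like cells. The sign for Smarcc1 depended on the probe: the brightest gave 0.24 and 0.36, and dimmer ones gave -0.65 and -0.35, and -0.61 and -0.37.

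Actl6a (Baf53a), the actin-related subunit of proliferating cells, read 1196, 1203 and 1114 in Sox7 (+/-) ES cells against 517, 491 and 534 in Sox7 (+/-) XEN-like cells. Actl6a was at 1985, 1921 and 1722 in Sox7 (-/-) ES cells and at 667, 749.7 and 667 in Sox7 (-/-) XEN-like cells, with differences of -1.19 ± 0.08 (SE) in Sox7 (+/-) cells and -1.43 ± 0.08 in Sox7 (-/-) cells and no overlap. Arid1a, which binds DNA in BAF, read 1002, 1008 and 994 in Sox7 (+/-) ES cells against 904, 974 and 1124 in Sox7 (+/-) XEN-like cells. Arid1a was at 1007, 966 and 1100.0 in Sox7 (-/-) ES cells and at 924, 820.1 and 902 in Sox7 (-/-) XEN-like cells. The Arid1a arrays overlapped between ES and XEN-like cells in the Sox7 (+/-) line. Arid1b, its alternative, read 255, 274 and 251 in Sox7 (+/-) ES cells against 458, 453 and 336 in Sox7 (+/-) XEN-like cells. Arid1b was at 331, 327 and 384 in Sox7 (-/-) ES cells and at 401, 416 and 407 in Sox7 (-/-) XEN-like cells. Arid1a differed by -0.01 and -0.22 and Arid1b by 0.66 and 0.24. The core subunit Smarcb1 differed by 0.03 and -0.26.

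**Figure D3:**
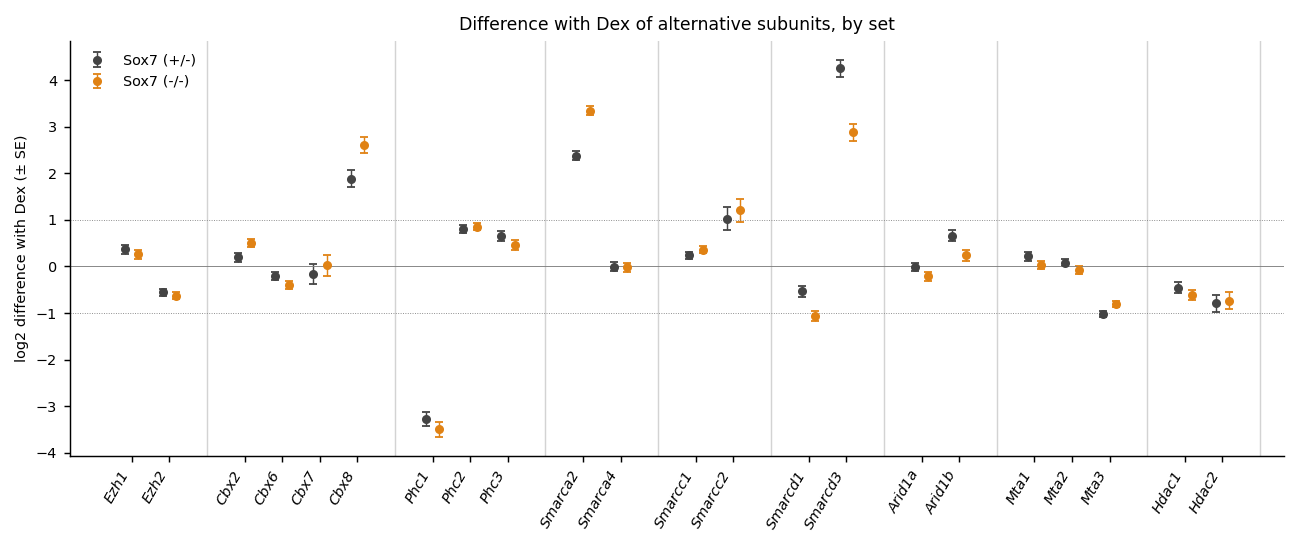
Log2 difference with Dex (XEN-like minus ES cells) of alternative subunits, set by set, in Sox7 (+/-) cells (dark) and Sox7 (-/-) cells (orange), with standard errors (3 arrays per group); dotted lines mark 2-fold. Smarca2, Smarcd3 and Cbx8 lie above 2-fold and Phc1 below it in both lines, while Smarca4, Arid1a, Cbx7, Mta1 and Mta2 lie near 0.

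None of the NuRD subunits passed 2-fold in both lines. Mta3, which fills the same position as Mta1 and Mta2, read 1356, 1375 and 1298 in Sox7 (+/-) ES cells against 677, 701 and 619 in Sox7 (+/-) XEN-like cells. Mta3 was at 1480.4, 1521 and 1432 in Sox7 (-/-) ES cells and at 846, 844 and 843 in Sox7 (-/-) XEN-like cells, with differences of -1.01 and -0.81. Its dimmer probes gave -1.12 and -0.53, and -0.30 and 0.14. Mta1 read 265, 267 and 248 in Sox7 (+/-) ES cells against 340.1, 309 and 264 in Sox7 (+/-) XEN-like cells. Mta1 was at 312, 285 and 290.1 in Sox7 (-/-) ES cells and at 310.4, 307 and 289 in Sox7 (-/-) XEN-like cells. The Mta1 arrays overlapped between ES and XEN-like cells in both lines. Mta2 read 1145, 1068 and 1056 in Sox7 (+/-) ES cells against 1113, 1130.0 and 1218 in Sox7 (+/-) XEN-like cells. Mta2 was at 1515, 1618 and 1448 in Sox7 (-/-) ES cells and at 1572, 1413 and 1368 in Sox7 (-/-) XEN-like cells. Neither paralogue passed a log2 difference of 0.5 with Dex in either line, with 0.22 and 0.03 for Mta1 and 0.08 and -0.07 for Mta2. Hdac1 read 7215, 6945 and 7135 in Sox7 (+/-) ES cells against 4840.0, 4522 and 6334 in Sox7 (+/-) XEN-like cells. Hdac1 was at 7622, 8019.5 and 7352 in Sox7 (-/-) ES cells and at 5085, 5176 and 4779 in Sox7 (-/-) XEN-like cells. No Hdac1 signal in XEN-like cells reached those in ES cells of the same line. Hdac2 read 45.4, 43.3 and 39.3 in Sox7 (+/-) ES cells against 27.7, 31.1 and 17.3 in Sox7 (+/-) XEN-like cells. Hdac2 was at 29.1, 30.0 and 27.4 in Sox7 (-/-) ES cells and at 15.6, 17.4 and 19.03 in Sox7 (-/-) XEN-like cells. Both deacetylases were lower in XEN-like cells, with log2 differences for Hdac1 of -0.46 and -0.61 and for Hdac2 of -0.79 and -0.74. Chd4, the ATPase, differed by -0.02 and -0.02, and Mbd3, which links the parts of NuRD, by 0.07 and 0.11.

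Outside these complexes, Chd7, a remodeller of enhancers, was higher in XEN-like cells, with differences of 1.25 ± 0.09 (SE) in Sox7 (+/-) cells and 1.23 ± 0.09 in Sox7 (-/-) cells. Chd1 differed by -0.16 and 0.29. Kdm5b, which removes methylation from lysine 4, read 6795, 6627 and 6716 in Sox7 (+/-) ES cells against 2391, 2425 and 2279.6 in Sox7 (+/-) XEN-like cells. Kdm5b was at 9836, 10134 and 10847 in Sox7 (-/-) ES cells and at 2945, 2549 and 2553 in Sox7 (-/-) XEN-like cells. Its brightest probe gave differences of -1.51 ± 0.07 (SE) in Sox7 (+/-) cells and -1.94 ± 0.07 in Sox7 (-/-) cells. Its dimmer probes, from brighter to dimmer, gave -1.79, -0.72 and -0.52 in Sox7 (+/-) cells and -2.58, -1.09 and -1.05 in Sox7 (-/-) cells. Kdm1a, a demethylase found with NuRD, differed by -0.26 and -0.48. The lysine 9 methyltransferases Setdb1 (0.04 and -0.26), Ehmt1 (0.21 and 0.15) and Ehmt2 (0.18 and 0.60) all stayed within 2-fold.

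The genotypes were then compared in XEN-like cells, to ask whether loss of Sox7 went with another level of these genes after 4 days of Dex. Of the members, 2 passed the test and 2-fold, both higher in Sox7 (-/-) cells: Phf6 by 2.59 ± 0.27 on the log2 scale (SE; limma, adjusted p = 9.4e-05) and Phf19 by 1.89 ± 0.25 (adjusted p = 0.00034). No member passed in the other direction. Of all genes, 4.13% passed as higher and 3.40% as lower. For Phf19 the Sox7 (+/-) XEN-like arrays were not well above background, and the signal in Sox7 (-/-) cells was at least 1.45-fold higher as a bound. With normexp its log2 difference was 0.18 (limma, adjusted p = 0.081). With normexp the difference of Phf6 was 1.72 (limma, adjusted p = 2e-07). Without the Sox7 (-/-) array on the other slide the differences were 2.56 for Phf6 and 1.79 for Phf19.

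At an adjusted p under 0.05 and any size, 17 of the 51 members were higher and 5 lower when XEN-like cells lacked Sox7, where 20.2% of all genes were higher and 15.1% lower. Of the 7 PRC2 subunits, 6 were among the 17: Suz12, higher by 0.49 ± 0.07 (SE; limma, adjusted p = 0.00042), Ezh2 by 0.45 ± 0.07 (adjusted p = 0.0013), Eed by 0.35 ± 0.07 (adjusted p = 0.003), Mtf2 by 0.54 ± 0.10 (adjusted p = 0.0034), Jarid2 by 0.49 ± 0.17 (adjusted p = 0.045) and Phf19. For Ezh1 the difference was 0.10 ± 0.09 (limma, adjusted p = 0.42). The signals of Suz12 were 466, 464 and 466 in Sox7 (+/-) and 670.3, 666 and 625 in Sox7 (-/-) XEN-like cells, and those of Ezh2, Eed, Mtf2 and Jarid2, given above, did not overlap either. From PRC1 the higher genes were Pcgf6 by 0.83 ± 0.09 (limma, adjusted p = 0.00015), with signals of 224, 233 and 183 against 384, 392 and 358, Bmi1 by 0.75 ± 0.08 (adjusted p = 8.5e-05), Cbx2 by 0.67 ± 0.09 (adjusted p = 0.00046), and Rnf2, Rybp and Pcgf1 by 0.36, 0.37 and 0.30. Actl6a (0.43), Mta2 (0.33), Mta3 (0.34), Ehmt2 (0.49) and Phf6 completed the 17. The 5 lower genes were Smarcd3 with a difference of -0.74 ± 0.18 (limma, adjusted p = 0.012), Pcgf5 (-0.45), Chd7 (-0.31), Smarca2 (-0.29) and Smarcc1 (-0.27), whose other probes gave -0.03 and 0.32. Without Sox7 (+/-) XEN-like replicate 3 the difference of Smarcd3 was -1.01, past 2-fold (limma, adjusted p = 1.3e-05).

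Of the 17 higher genes, 11 passed under every alternative in which they could be fitted: Ezh2, Eed, Suz12, Mtf2, Bmi1, Pcgf6, Cbx2, Actl6a, Mta3, Ehmt2 and Phf6. Jarid2 lost its call under 15 of 25 alternatives, 9 of them leaving out 1 array, and its difference was 0.25 without Sox7 (+/-) XEN-like replicate 3 (limma, adjusted p = 0.025). The calls of Phf19, Rnf2, Pcgf1, Rybp and Mta2 were lost under 1 to 5. Each of the 5 lower genes lost its call under 1 or more alternatives, and scaling to the spike-in probes, which moved the median of all genes by 0.25 on the log2 scale, left 22 members higher and none lower. The authors' unscaled table, which moved that median by 0.35, had 33 higher and none lower. In ES cells all of the 6 PRC2 genes were also higher in the Sox7 (-/-) line, by 0.28 (Phf19) to 0.69 (Eed), as a description. Among 10 cell cycle genes, Pcna (0.53), Top2a (0.44), Mcm2 (0.33) and Ccna2 (0.24) were also higher in Sox7 (-/-) XEN-like cells at an adjusted p under 0.05. Their summed signal was 16567 to 20968 in Sox7 (+/-) and 20977 to 21745 in Sox7 (-/-) XEN-like cells, and Aurkb was not well above background on any array. Of the ES markers, 5 of 10 were higher and 1 lower. Past 2-fold were Esrrb, at 18.6, 15.4 and 16.8 in Sox7 (+/-) and 429, 435 and 391 in Sox7 (-/-) XEN-like cells (4.63, limma, adjusted p = 1.6e-09), and Zfp42 (1.11, adjusted p = 2.7e-06). Their summed signals, 59897 to 76500 and 64092 to 68716, were mostly those of Dppa5a, whose difference was -0.07 (limma, adjusted p = 0.61). All 5 tested of 7 visceral endoderm markers were higher, with summed signals of 6290 to 6383 against 21745 to 23523, Afp and Apoa1 not being well above background. Of 5 parietal endoderm markers 4 were lower. The summed signals of the 5, 138767 to 164210 against 114734 to 122513, were mostly those of Sparc, which did not pass (-0.26, limma, adjusted p = 0.051). Of 5 tested trophectoderm markers 4 were higher, with summed signals of 216 to 290 against 547 to 617. No Sox7 (+/-) XEN-like array had Cdx2 or Elf5 well above background. The part of these differences in the values of the chromatin genes was not tested.

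**Figure D4:**
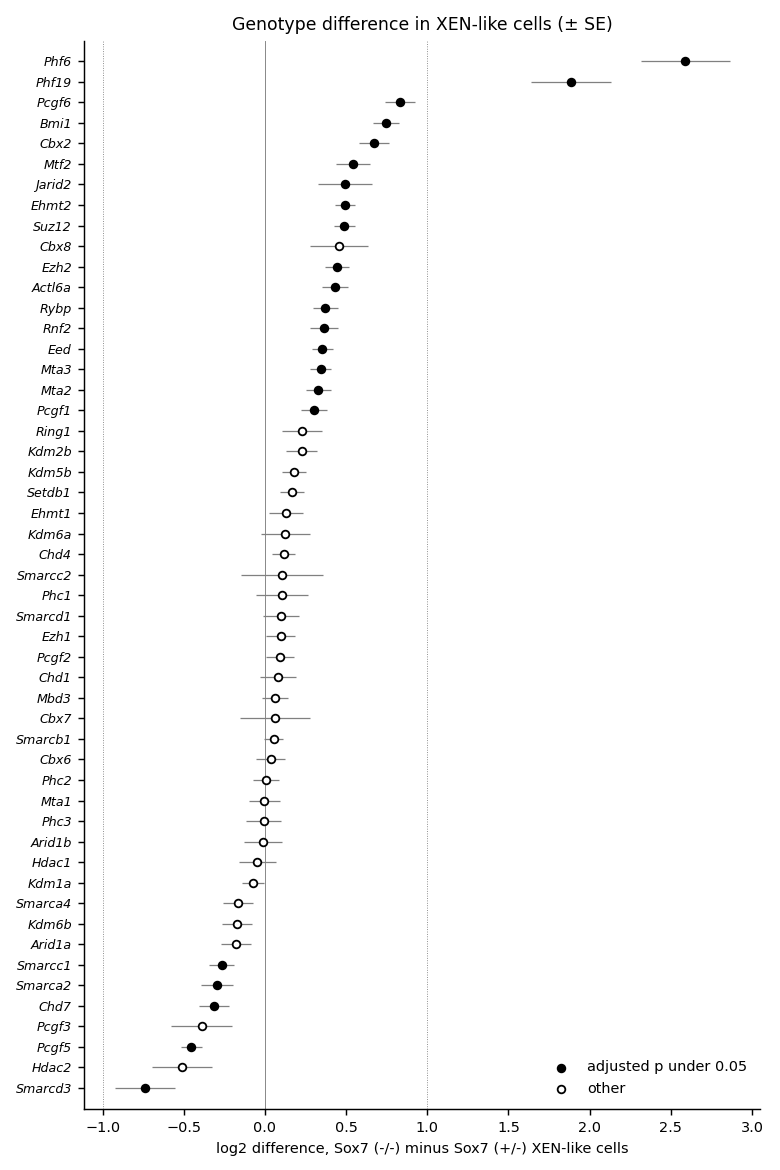
Genotype difference in XEN-like cells, Sox7 (-/-) minus Sox7 (+/-) on the log2 scale (x axis), for the 51 members, ordered by value, with standard errors (3 arrays per group). Filled circles passed an adjusted p under 0.05 and dotted lines mark 2-fold. Phf6 and Phf19 stand beyond 2-fold at 2.59 and 1.89, and Smarcd3 is lowest at -0.74.

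The Dex responses of the genotypes were compared for the 50 members other than Phf6. A response is the signed log2 difference with Dex, so a smaller fall counts as higher and a larger fall as lower. This test shares its XEN-like arrays with the comparison above. It is computed from the differences with Dex that served to choose the list, so its p-values are not independent of that choice. In the Sox7 (-/-) line slide and Dex partly coincide, as given above. Phf19 had a higher response in Sox7 (-/-) cells by 1.60 ± 0.35 (SE; limma, adjusted p = 0.0075), and Smarcd3 a lower one, with a difference of -1.38 ± 0.26 (adjusted p = 0.0037). They were the members called past 2-fold, where 6.99% of all genes passed as higher and 3.15% as lower. No Sox7 (+/-) XEN-like array was well above background for Phf19, so the size of its difference rests on signals at background. As a bound, its signal was at least 3.02-fold lower with Dex in Sox7 (+/-) cells, a fold and not a log2 value. In Sox7 (-/-) cells its mean signal was 34.7 without and 13.7 with Dex, a log2 difference of -1.34. For Smarcd3 the Sox7 (-/-) cells started higher, at 76.6, 79.5 and 78.2 against 46.2, 53.0 and 51.6, and ended lower, at 584, 548 and 592 against 1116, 1194 and 661, with Sox7 (+/-) XEN-like replicate 3 nearest to them. Without that array the difference between the responses was -1.65, and with spike-in scaling -0.98 (limma, adjusted p = 0.075). For Phf19 the call was lost with normexp, at 0.07 (limma, adjusted p = 0.69), and on the unscaled table of the authors, at 0.53 (adjusted p = 0.15).

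At any size, 5 of the 50 had a higher response in Sox7 (-/-) cells at an adjusted p under 0.05, where 13.1% of all genes did, and 7 a lower one, where 15.7% did. With spike-in scaling, which moved the median of all genes by 0.40, 9 had a higher response and none a lower one. The other higher ones were Smarca2 by 0.96 ± 0.14 (limma, adjusted p = 0.00079), Bmi1 by 0.63 ± 0.11 (adjusted p = 0.0025), Pcgf5 by 0.60 ± 0.09 (adjusted p = 0.001) and Ehmt2 by 0.42 ± 0.09 (adjusted p = 0.0063), and these 4 passed under every alternative in which they could be fitted. The difference of Smarca2 was 0.35 with normexp (limma, adjusted p = 0.032). Smarca2 and Pcgf5 differed from Bmi1 and Ehmt2 in where the lines parted: in ES cells they were lower in Sox7 (-/-) cells, by log2 differences of -1.26 and -1.05, while Bmi1 and Ehmt2 differed there by 0.12 and 0.08. A dimmer probe for Bmi1 gave 0.38 and the dimmest for Pcgf5 0.43, neither past the test. The lower ones besides Smarcd3 were Smarcd1 (-0.53), Rnf2 (-0.46), Kdm5b (-0.43), Pcgf2 (-0.39), Eed (-0.34) and Smarcb1 (-0.29), and each lost its call under 1 or more alternatives. Of these, Smarcd1, Rnf2, Kdm5b and Eed fell further with Dex in Sox7 (-/-) than in Sox7 (+/-) cells. Pcgf2 rose less, and Smarcb1 differed by 0.03 in Sox7 (+/-) and by -0.26 in Sox7 (-/-) cells.

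Phf6, a PHD finger protein known to bind NuRD and encoded on the X chromosome, differed between the lines more than any other member. It was read by 1 probe, at chrX:50309896-50309955 on mm9. Its signal was 20.8, 20.5 and 18.9 in Sox7 (+/-) ES cells and 297, 317 and 332 in Sox7 (-/-) ES cells, a log2 difference of 3.97 ± 0.27 (SE) that served to choose it. In XEN-like cells Phf6 read 27.7, 31.1 and 12.3 against 136, 133 and 127, with the tested difference given above. That difference follows from the one between the ES lines and the differences with Dex, so its p-value is not independent of the choice. Replicate 3 of the Sox7 (+/-) XEN-like cells, the lowest array, was not well above background. Without that array the difference was 2.17 (limma, adjusted p = 3.8e-07). With Dex it differed by 0.13 ± 0.27 in Sox7 (+/-) and by -1.25 ± 0.27 in Sox7 (-/-) cells, a difference of -1.39 ± 0.39 given without a test. Over 2-fold differences between the ES lines were otherwise seen for Pcgf5 and Smarca2, both lower in Sox7 (-/-) cells; of all genes, 2.21% were over 2-fold higher there and 6.95% lower.

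Whether genes next to Phf6 differed too was tested in ES cells over all 17 other genes or transcripts with a tested probe within 1 Mb on mm9. Of these, 1 was higher in Sox7 (-/-) cells past the test and 2-fold, Ccdc160 by 1.31 ± 0.26 (SE; limma, adjusted p = 0.0027), and 4 were lower, among them Plac1, a placental gene, with a difference of -1.55 ± 0.15 (adjusted p = 3.7e-05) and 3 probes for transcripts without a gene symbol. Of these 3 probes, 1 was well above background on 1 Sox7 (+/-) and no Sox7 (-/-) ES array, so its difference rests on signals at background. Another was well above background on no Sox7 (-/-) ES array and was at least 1.35-fold lower there, as a bound. Its probe lies 98.0 kb from that of Phf6, beside the third at 97.0 kb. Of all genes 8.52% passed in either direction. The nearest tested genes with a symbol thus lay on both sides of 0 in ES cells: the Ccdc160 probe lies 157 kb before that of Phf6 and the Plac1 probe 113 kb after. In XEN-like cells Plac1 was instead higher in the Sox7 (-/-) line, by 2.32 (limma, adjusted p = 3.9e-06), and no array had Ccdc160 well above background. In ES cells the differences of the 17 ran from -1.55 to 1.31 with a median of -0.58, against 3.97 for Phf6. Slide and genotype cannot be told apart in these arrays, and with the slide as a block the count of calls was 2.

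**Figure D5:**
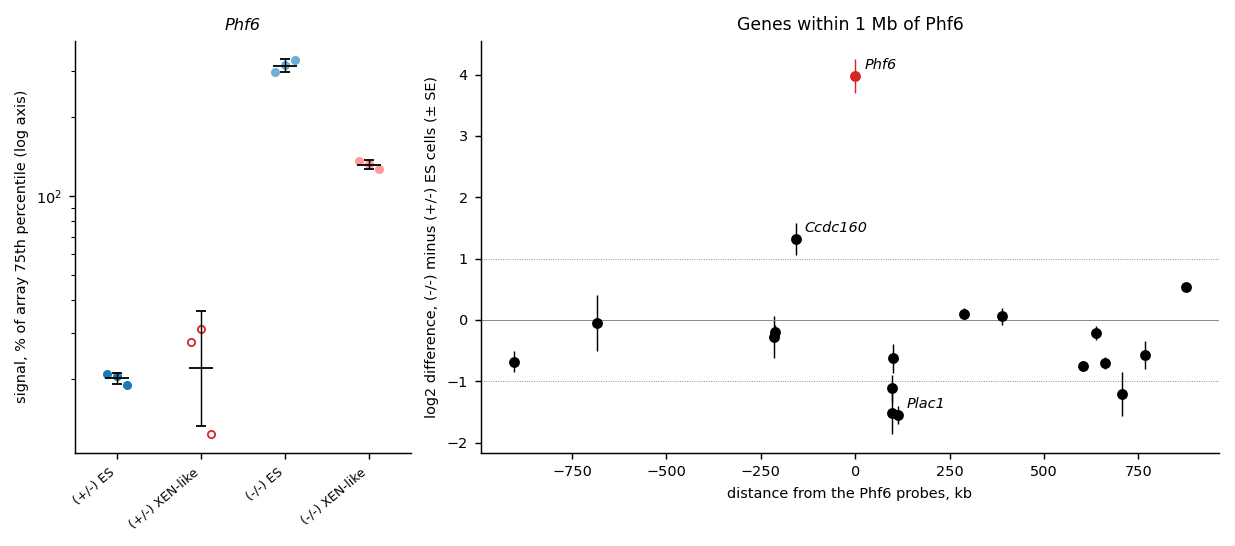
Left, signal of Phf6 on every array (log axis, percent of the 75th percentile of the array; open circles where fewer than 3 arrays of the group were well above background; bars, mean and 1 SD of the log2 signals, n = 3). Right, log2 difference between Sox7 (-/-) and Sox7 (+/-) ES cells with standard errors for the genes within 1 Mb, by distance from the Phf6 probe. Phf6 stands at 3.97 and all other genes between -1.55 and 1.31.

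The other genes of these complexes, 92 in a list made from their known subunits and partners, give the setting of the members; 88 were tested. With Dex, 9 were higher and 11 lower in Sox7 (+/-) cells past the test and 2-fold, beside 11.0% and 14.0% of all genes, and in Sox7 (-/-) cells 11 were higher and 17 lower, beside 14.5% and 14.1%. Among those higher in both lines were the histone-binding PRC2 subunit Rbbp7 (1.19 and 1.70), the PRC1 genes Scmh1 (1.64 and 1.34) and Yaf2 (1.22 and 1.29), Lcor, Chd6, and Rcor1 (1.58 and 1.73), the partner of Kdm1a. Lower in both lines were Rcor2, the paralogue of Rcor1 (-1.61 and -1.76), the BAF subunits Dpf1 and Bcl11a, the remodeller Chd9 (-4.25 and -4.06), Bicral, L3mbtl2, Scml2, Auts2, Trim28, Kdm3b and Chd5. Chd5, the paralogue of Chd4 known from neurons and testis, had no XEN-like array well above background. With Dex it was at least 11.9-fold lower in Sox7 (+/-) and at least 18.7-fold lower in Sox7 (-/-) cells. Between the genotypes in XEN-like cells, Scml2 was higher (1.08, limma, adjusted p = 0.015, with no Sox7 (+/-) array well above background) and Suv39h1, a lysine 9 methyltransferase, lower (-1.02, adjusted p = 7.6e-06) in Sox7 (-/-) cells. The Dex response was lower in Sox7 (-/-) cells for the NuRD partner Sall1 (-1.43, limma, adjusted p = 1.6e-05) and higher for Lcorl (1.04) and Smarca1 (1.10).

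Of the promoter motifs, GATA was in 6 of the 55 windows of the members (10.9%) and in 18.6% of all 32851 windows. It was found for Smarcd3, Pcgf5, Pcgf2, Arid1a, Chd4 and Setdb1, of which Smarcd3 and Pcgf5 were over 2-fold higher with Dex and the other 4 stayed within 2-fold. The SOX motif was in 10 windows (18.2%) of 9 members, Phc1, Mtf2, Ezh2, Suz12, Pcgf6, Kdm2b, Kdm6a, Phc2 and Smarca2, and in 24.6% of all windows. The E2F motif was in 5 windows (9.09%), those of Phf19, Ezh2, Suz12, Smarcd1 and Arid1a, and in 2.26% of all windows. Of these 5 genes, Phf19 was over 2-fold lower with Dex in both lines and Smarcd1 only in Sox7 (-/-) cells. Ezh2, Suz12 and Arid1a stayed within 2-fold. Of the genes with a SOX match, Phc1 and Mtf2 were over 2-fold lower in both lines and Smarca2 over 2-fold higher. The others with a SOX match stayed within 2-fold. Nothing is read from these directions, since the list was chosen from these differences. A match is a description of the letters in these windows and shows no binding.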

How the data were processed

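RNA from the 12 samples was hybridised to one-colour Agilent mouse arrays, 3 per group, and grouped by GEO's labels. The authors deposited the scanner output of Agilent Feature Extraction 10.7.3.1, per the file headers, with background-subtracted intensity values for each spot, and a table of intensities that lay within 0.4975% of the mean spot signals and served only as an alternative. Here the log2 processed signal was set relative to the 75th percentile of each array, outlier spots were dropped (7 member spots on any array) and repeated spots of 1 probe entered as their mean. limma 3.58.1 (R 4.3.3) was fitted to the 25940 probes that some group had well above background throughout, over the 12 arrays, with 1 mean per group and Benjamini-Hochberg adjustment over all probes. A call needed more than 2-fold and an adjusted p under 0.05. Calls by adjusted p alone were added after seeing the data. Each gene was read by its brightest probe. The number of arrays limits the precision.

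The members and lists were chosen with earlier results of these data known. Values on every array are given for Phf6, the called members, the 5 largest Dex differences each way and paralogues of 1 position in a complex, with Bmi1, Eed, Kdm5b, Suz12 and Pcgf6 added where results turn on them. The fit was tested on simulated data. Background correction, scaling, filter, slide, pairing, variance model, probes per gene and left-out arrays were varied.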

Additional observations from a re-analysis of the deposited data

Results flagged for a closer look

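The Dex response of 2 members differed between the genotypes past 2-fold by a test of the difference itself, 1 of 50 in each direction, where 6.99% of all genes had a higher and 3.15% a lower response in Sox7 (-/-) cells. This difference is computed from the differences with Dex that served to choose the list. For Phf19, which helps to bring PRC2 to its sites, the signed response was higher in Sox7 (-/-) cells, its fall with Dex being smaller there. The difference was 1.60 on the log2 scale (limma, adjusted p = 0.0075, 3 arrays per group). The Phf19 signal on the 3 Sox7 (+/-) XEN-like arrays was not well above background, however. That difference was 0.067 with normexp (limma, adjusted p = 0.69) and 0.53 on the authors' unscaled table (adjusted p = 0.15). For Smarcd3, an alternative BAF subunit, the response in Sox7 (-/-) cells fell short, with a difference of -1.38 (limma, adjusted p = 0.0037), and all Sox7 (-/-) arrays lay between the Sox7 (+/-) ES and XEN-like arrays. With spike-in scaling it was -0.98 (limma, adjusted p = 0.075).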

How the results depend on the processing

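Another scaling, background correction, filter, slide block, variance model or probe rule was tried for each result. In Sox7 (+/-) cells, the members over 2-fold higher with Dex numbered 4 with spike-in scaling and 3 on the authors' unscaled table (7 as reported), and those lower numbered 14 with spike-in scaling (8 as reported). Spike-in scaling moved the median Dex difference of all genes by -0.49 there, and the authors' table by -0.40. The count of members over 2-fold lower in Sox7 (-/-) ES cells was 0 with normexp and on the authors' table, and 1 with the filter on all 12 arrays and with the mean of all probes (2 as reported), and the count of higher ones was 0 with the filter on all 12 arrays, in which Phf6 and Phf19 could not be fitted. The count of members higher in Sox7 (-/-) XEN-like cells was 1 with normexp and 0 with that filter (2 as reported). For a higher Dex response in Sox7 (-/-) cells it was 0 with normexp and with that filter, 2 with a slide block and 5 with spike-in scaling (1 as reported), and for a lower one 0 with spike-in scaling and on the authors' table (1 as reported). The genes around Phf6 called in ES cells numbered 1 with normexp and on the authors' table, and 2 with that filter and with the slide block (5 as reported). Of the other chromatin genes, the XEN-like genotype difference called 1 with normexp, with that filter, with only the arrays compared and with the mean of all probes, and 5 on the authors' table (2 as reported), and the difference in Dex response called 7 with spike-in scaling and 5 on the authors' table (3 as reported). The cause of these shifts was not tested.

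By adjusted p alone, the members higher in Sox7 (-/-) XEN-like cells numbered 33 on the authors' table (17 as reported), and the 5 lower ones numbered 0 with spike-in scaling and there, 2 with no filter, 3 with the slide block and 1 with only the arrays compared. The members with a higher Dex response numbered 9 with spike-in scaling (5 as reported), and those with a lower one 0 with spike-in scaling, 1 on the authors' table and with the slide block, 4 with quantile normalization and with no filter, and 3 to 12 with an array left out (12 without Sox7 (+/-) XEN-like replicate 3; 7 as reported). Signs turned for values that no longer passed the test. In the Dex response these were Eed (0.066), Pcgf2 (0.015) and Smarcb1 (0.11) with spike-in scaling, which moved the median of all genes by 0.40, and Eed (0.12), Pcgf2 (0.0089), Smarcb1 (0.092) and Rnf2 (0.021) on the authors' table, which moved it by 0.35. In the XEN-like genotype difference they were Pcgf5 (0.018), Smarca2 (0.14), Smarcc1 (0.17) and Chd7 (0.14) on the authors' table, which moved the median by 0.35, and Smarcc1 (0.0074) with the mean of all probes.

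Leaving out each array in turn gave 6 to 7 members higher and 7 to 8 lower with Dex in Sox7 (+/-) cells, and 6 to 7 and 9 to 9 in Sox7 (-/-) cells. It gave 1 to 1 higher and 2 to 2 lower in Sox7 (-/-) ES cells, and 2 to 2 higher and 0 to 1 lower in Sox7 (-/-) XEN-like cells, the 1 being Smarcd3 without Sox7 (+/-) XEN-like replicate 3. A higher response to Dex in Sox7 (-/-) cells was called for 1 to 2 members, Smarca2 joining without Sox7 (+/-) ES replicate 3, Sox7 (+/-) XEN-like replicate 3, Sox7 (-/-) ES replicate 1 or Sox7 (-/-) XEN-like replicate 2, and a lower one for 1 to 1. Around Phf6 it gave 4 to 5 calls. The other chromatin genes called numbered 18 to 23 and 28 to 29 with Dex in Sox7 (+/-) and Sox7 (-/-) cells, and 2 to 5 for the difference in Dex response (5 without Sox7 (+/-) XEN-like replicate 2 or Sox7 (-/-) XEN-like replicate 1). For the XEN-like genotype difference they numbered 1 to 2, with 1 without Sox7 (+/-) XEN-like replicate 1 or 3 or Sox7 (-/-) XEN-like replicate 2 or 3. Phf6 kept its call in XEN-like cells, with differences of 2.17 to 2.84, and with normexp, at 1.72 (2.59 as reported).

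Deviations of samples with the same replicate number correlated at -0.05 to 0.13 over 18 pairs, so the numbers were not taken to pair the samples. With the replicate number as a block, Phf6 differed by 2.59 in XEN-like cells, and 7 members were higher and 8 lower with Dex in Sox7 (+/-) cells. The block moved none of the counts above by over 1.5 times. The difference in Dex response has no value with only the arrays compared, and the genes around Phf6 none with the mean of all probes. Signal near background limits, among others, Phf19, Phf6 in Sox7 (+/-) cells, and Actl6b. Smarca2, Smarcc2 and Pcgf3 were well above background on only 2 of 3 Sox7 (-/-) ES arrays, and Cbx7 was dim in all groups.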

Other observations

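Hprt, which lies next to Phf6 on the X chromosome (its probe is 64.8 kb from that of Phf6 on mm9), was not well above background on any of the 12 arrays. Its signal was 1.33, 1.60 and 1.89 in Sox7 (+/-) ES cells and 5.31, 4.39 and 5.24 in Sox7 (-/-) ES cells, in percent of the 75th percentile of the array. It was looked up after the values of Phf6 were known.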
